A study of Rattus norvegicus with 6 samples.

Results

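MicroRNAs (miRNAs) of 5 hairpins that are known chiefly from blood cells were followed in cultured cardiac fibroblasts and in the exosomes collected from their medium. They were chosen by name, as every listed arm of miR-142, miR-144, miR-150, miR-223 and miR-451, which gave 10 of the 728 miRNAs in the deposited counts. The exosome libraries, 3 in number, came from vesicles ultracentrifuged out of medium that fibroblasts had conditioned for 48 h with 1% exosome-depleted serum. The 3 fibroblast libraries came from the cells, for which the same 48 h and 1% serum are recorded. All cells were from hearts of Wistar rats of postnatal days 1 to 2, were freed by enzymatic digestion, grown in 10% fetal bovine serum and carried no genetic or drug treatment. The labels number the fibroblast libraries 1, 2 and 4; the exosome columns are numbered 1 and 2, and the other exosome column carries no number and is called the unnumbered exosome library. The labels do not say that the libraries came from separate cultures, so the tests see only the spread among these libraries, and it may be technical. No library of blood, of serum or of medium without cells was analysed here, so the source of these reads was not tested.

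A miRNA is cut from a hairpin precursor, and one of its arms, the guide, is usually kept by an Argonaute protein while the opposite arm is mostly degraded. Each of these hairpins marks blood lineages: miR-142 is expressed across blood cells, miR-223 in neutrophils and other myeloid cells, miR-150 in mature lymphocytes, and miR-144 and miR-451 in developing red cells, where they are made from a single transcript under the factor GATA1. miR-451 is also abundant in mature red cells, and in mice and zebrafish its short hairpin is cut by Argonaute 2 in place of Dicer. The guides best known from blood are miR-144-3p, miR-150-5p, miR-223-3p and miR-451-5p, while both arms of miR-142 are used.

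RefSeq (build GRCr8) held the mature sequences of 8 of the 10 miRNAs, shown here because each arm is an entry of its own in the counts, 5′ to 3′ with the seed (bases 2 to 8), the part that pairs with target messenger RNAs, in capitals.
rno-miR-142-3p: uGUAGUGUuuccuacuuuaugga
rno-miR-142-5p: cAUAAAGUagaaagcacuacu
rno-miR-144-3p: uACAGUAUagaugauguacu
rno-miR-144-5p: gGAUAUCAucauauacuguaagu
rno-miR-223-3p: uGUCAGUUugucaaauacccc
rno-miR-223-5p: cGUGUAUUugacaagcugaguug
rno-miR-451-3p: aUGGUAAUgguucucuugcugcu
rno-miR-451-5p: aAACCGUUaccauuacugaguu
None of these 8 shared its whole seed with another of them or with any other mature miRNA of the RefSeq table, so they form 8 seed groups of 1. With the last base of the seed left out, miR-144-3p matched miR-101a-3p and miR-101b-3p, and miR-451-3p matched miR-1193-5p. The hairpins of miR-144 and miR-451 lie 89 bases apart on the plus strand of chromosome 10 in GRCr8. The miR-451 hairpin, at chr10:63459569-63459640, is printed because its arms are so close, with miR-451-5p in capitals.
miR-451 hairpin: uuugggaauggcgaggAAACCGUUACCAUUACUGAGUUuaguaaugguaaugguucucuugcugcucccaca
The arms are 5 bases apart in this hairpin, against 15 in miR-142, 14 in miR-144 and 19 in miR-223.

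The libraries differed widely in depth. Exosome libraries held 113129 to 120224 counts and fibroblast libraries 2439559 to 12508651. A single miRNA, miR-873-3p, took 84.9% to 90.1% of the exosome counts and 0.391% to 2.37% of the fibroblast counts, which left 11825 to 18164 exosome counts for all other miRNAs. Levels are given as CPM, counts scaled to 1000000 miRNA counts per library; each count stands for a whole mature miRNA, so no length enters. A count of 0 allows up to 3 counts, a share of 0.00250% to 0.00265% in exosome and 2.40e-05% to 0.000123% in fibroblast libraries. Intervals and floors cover counting error only.

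The blood-cell miRNAs were scarce in exosomes and in fibroblasts alike. Together the 10 miRNAs held 78, 77 and 35 counts in exosome libraries 1, 2 and unnumbered, and 3154, 10183 and 687 counts in fibroblast libraries 1, 2 and 4. This was 0.0541% ± 0.0215 of exosome counts and 0.0530% ± 0.0268 of fibroblast counts (SD, n = 3 each), so the means differed by far less than the spread between libraries. By library, exosomes had 0.0649% (0.0513 to 0.0810 as the exact 95% Clopper-Pearson interval), 0.0681% (0.0537 to 0.0851) and 0.0294% (0.0205 to 0.0409), and fibroblasts had 0.0495% (0.0477 to 0.0512), 0.0814% (0.0798 to 0.0830) and 0.0282% (0.0261 to 0.0304). The groups overlapped, and within each group 1 library was low, the unnumbered one among exosomes and library 4 among fibroblasts. In bulk RNA of this kind, fewer cells of a type and less RNA per cell cannot be told apart. With miR-873-3p left out of the totals the shares were 0.421% ± 0.121 in exosomes and 0.0536% ± 0.0266 in fibroblasts (SD, n = 3 each), without overlap. On that scale 7 of the 10 were higher in exosomes without overlap, and so were 48.1% of all miRNAs.

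**Figure D1:**
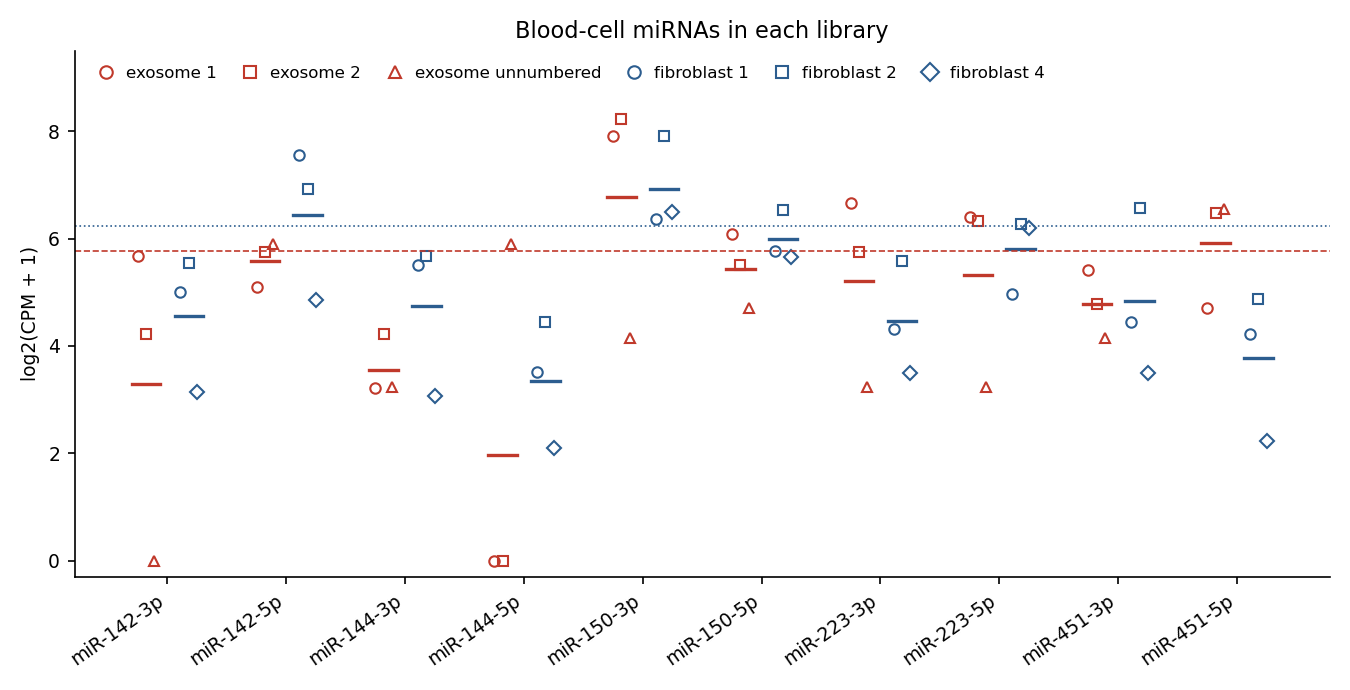
Level of each of the 10 blood-cell miRNAs as log2(CPM + 1), with 1 point per library, exosomes in red to the left and fibroblasts in blue to the right; short bars are means of the log values, and the dashed and dotted lines mark the median over all 728 miRNAs in exosomes (53.3 CPM) and fibroblasts (73.8 CPM). Most points lie under these lines, and the exosome and fibroblast points of each miRNA overlap.

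On average the individual members lay near or below the level of an ordinary listed miRNA. Their median over the 10 was 46.9 CPM in exosomes and 37.8 CPM in fibroblasts, where the median of all 728 miRNAs was 53.3 CPM in exosomes and 73.8 CPM in fibroblasts. By mean CPM 6 of the 10 ranked in the lower part of the 728 in exosomes and 8 in fibroblasts. The most abundant was miR-150-3p, with 186 ± 150 CPM in exosomes (rank 127) and 137 ± 89.5 CPM in fibroblasts (rank 245; SD, n = 3 each). In exosomes it was followed by miR-451-5p (68.6 ± 37.9 CPM), miR-223-5p (57.1 ± 42.2), miR-223-3p (53.8 ± 45.7), miR-142-5p (48.4 ± 13.4) and miR-150-5p (45.3 ± 20.7), then miR-451-3p (28.3 ± 12.5), miR-142-3p (22.5 ± 25.3), miR-144-5p (19.6 ± 34.0) and miR-144-3p (11.5 ± 5.38). In fibroblasts the order was miR-150-3p, miR-142-5p (112 ± 79.9 CPM), miR-150-5p (65.0 ± 23.3), miR-223-5p (59.7 ± 25.6), miR-451-3p (41.6 ± 45.6), miR-144-3p (34.0 ± 23.3), miR-142-3p (28.1 ± 19.1), miR-223-3p (25.3 ± 19.0), miR-451-5p (16.6 ± 12.4) and miR-144-5p (11.4 ± 8.77). No 2 neighbours in either order differed by more than the larger of their SDs.

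Between exosomes and fibroblasts, 1 of the 10 blood-cell miRNAs, miR-451-5p, was higher and 0 were lower (edgeR's quasi-likelihood test, Benjamini-Hochberg adjusted over all 698 miRNAs tested). Over all tested miRNAs, 11.3% were called higher and 18.6% lower, so 1 higher of 10 is near the background. At an unadjusted p under 0.05 the count was 2, with miR-223-3p as the other, where 37.7% of all miRNAs reached it in either direction; DESeq2 also called 1 higher (13.3% of all miRNAs), and limma on the deposited normalized values called 0 (5.90% of all higher). The median log2 fold change of the 10 was 0.09, beside -0.15 over all tested. All 10 passed the filter on low counts.

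rno-miR-451-5p, the red cell miRNA, had 3, 10 and 11 counts in exosome libraries 1, 2 and unnumbered, against 112, 356 and 9 counts in fibroblast libraries 1, 2 and 4. This equals 24.95, 88.4 and 92.4 CPM in exosomes and 17.6, 28.5 and 3.69 CPM in fibroblasts, and on this scale exosome library 1 fell among the fibroblast values. After TMM scaling (edgeR's correction of library size for composition) the values reached 18.6, 78.4 and 213 for exosomes, against 18.1, 14.3 and 4.66 for fibroblasts, and no longer overlapped, by a narrow margin at exosome library 1. Of all miRNAs, 39.3% had no overlap on the TMM scale and 30.5% none in CPM, where 0 of the 10 blood-cell miRNAs were without overlap. The fit gave miR-451-5p a 7.06-fold higher level in exosomes (log2 fold change 2.82, SE 0.70, edgeR adjusted p = 0.000525). The call was lost under 4 of 13 alternatives, among them total counts (log2 2.03, edgeR adjusted p = 0.246), limma on the deposited normalized values (log2 2.60, limma adjusted p = 0.0793) and leaving out the unnumbered exosome library (log2 1.90, 0.0534), whose TMM factor of 0.433 was the lowest of the 6; over all alternatives run, adjusted p lay between 0.00018 and 0.246. It rests on 24 exosome reads.

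**Figure D2:**
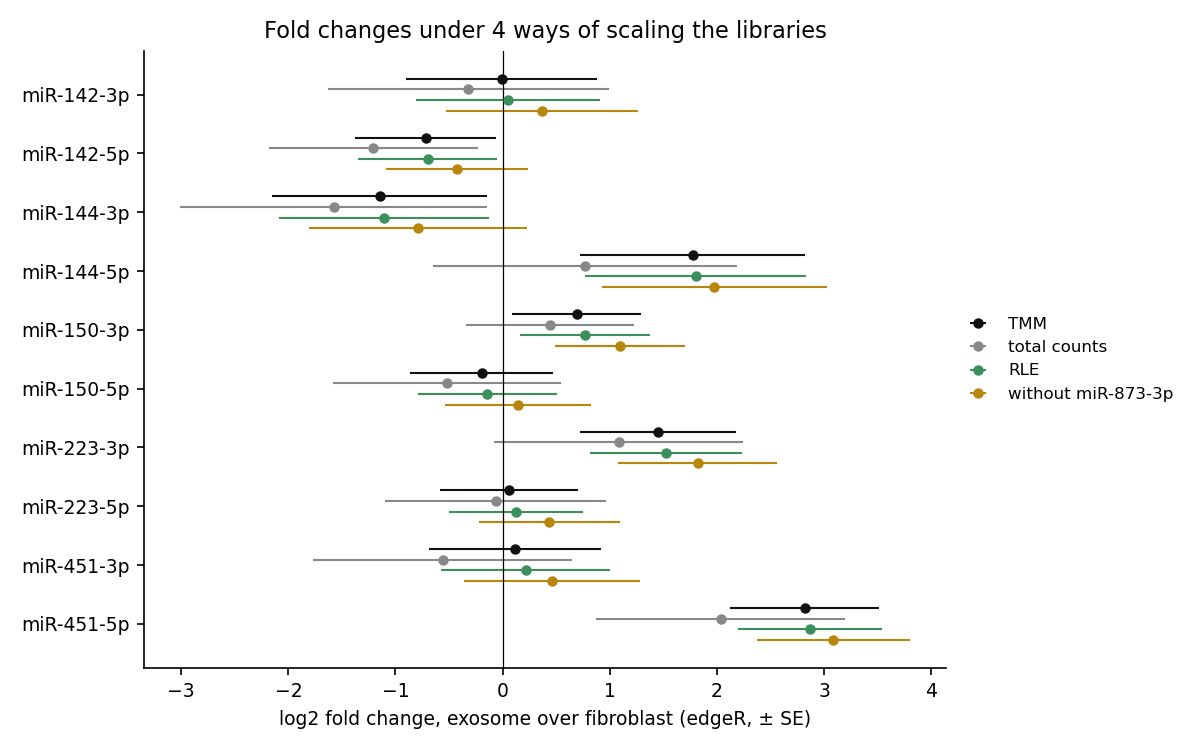
The log2 fold change of exosome over fibroblast with its SE for each blood-cell miRNA, from edgeR fits with 4 scalings of the libraries (TMM, total counts, RLE, and library sizes without miR-873-3p). miR-451-5p is highest under each scaling, at 2.03 to 3.09, and the values of miR-142-3p, miR-150-5p, miR-223-5p and miR-451-3p change sign between scalings.

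rno-miR-451-3p, the opposite arm of the same hairpin, did not pass. It had 5, 3 and 2 counts in exosome libraries 1, 2 and unnumbered, against 132, 1175 and 25 in fibroblast libraries 1, 2 and 4 (log2 0.12, SE 0.80, edgeR adjusted p = 0.931). rno-miR-144-3p, made from the same transcript as miR-451, had 1, 2 and 1 counts in exosomes against 282, 630 and 18 in fibroblasts (log2 -1.15, SE 1.00, edgeR adjusted p = 0.431). It had fewer reads than miR-451-5p in each of the 3 exosome libraries and more in each of the 3 fibroblast libraries. Per read of miR-451-5p, exosomes held 0.333, 0.200 and 0.0909 reads of miR-144-3p, and fibroblasts 2.52, 1.77 and 2.00. The exosome ratios stand on 1 or 2 miR-144-3p reads each. With both arms of each hairpin counted, the groups overlapped. The ratio of miR-144 to miR-451 was then 0.125, 0.154 and 0.615 in exosome libraries 1, 2 and unnumbered. In fibroblast libraries 1, 2 and 4 it was 1.43, 0.581 and 0.765. rno-miR-144-5p had 0, 0 and 7 counts in exosomes against 66, 259 and 8 in fibroblasts (log2 1.78, SE 1.05, edgeR adjusted p = 0.216). All of its exosome reads were in the unnumbered library, and without that library no direction can be read.

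Of the leukocyte miRNAs, rno-miR-223-3p, the myeloid guide, had 12, 6 and 1 counts in exosome libraries 1, 2 and unnumbered, against 121, 583 and 25 in fibroblast libraries 1, 2 and 4 (log2 1.45, SE 0.73, edgeR adjusted p = 0.127). Exosome libraries 1 and 2 were above every fibroblast library in CPM, at 99.8 and 53.0 against at most 46.6, and the unnumbered library, at 8.40, was below them all. With miR-873-3p taken out of the library sizes it passed (log2 1.82, edgeR adjusted p = 0.0445), where 15.1% of all miRNAs were called higher. rno-miR-223-5p had 10, 9 and 1 counts in exosomes against 193, 958 and 176 in fibroblasts and did not pass (log2 0.06, SE 0.64, edgeR adjusted p = 0.954).

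miR-150-3p and miR-150-5p, from the lymphocyte hairpin, did not pass either. rno-miR-150-3p had 29, 34 and 2 counts in exosomes against 517, 3002 and 218 in fibroblasts (log2 0.69, SE 0.60, edgeR adjusted p = 0.434), with exosome libraries 1 and 2 at 241 and 301 CPM and the unnumbered library at 16.8 CPM, below the 81.1 to 240.0 CPM of the fibroblasts. rno-miR-150-5p had 8, 5 and 3 counts in exosomes against 341, 1148 and 121 in fibroblasts (log2 -0.20, SE 0.67, edgeR adjusted p = 0.868). The authors' deposited normalized table, scaled back to reads by 1 factor per library, held 62.5% and 60.0% of the miR-150-5p counts of exosome libraries 1 and 2, and 96.7% to 98.2% of its fibroblast counts.

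miR-142, the hairpin shared by blood lineages, was the 1 hairpin of the 5 with both arms at or below 0 in the main fit. This does not set it apart, since the sign of miR-142-3p changed with the scaling. Its log2 fold change was -0.32 with total counts, 0.048 with RLE and 0.36 without miR-873-3p in the library sizes. rno-miR-142-5p had 4, 6 and 7 counts in exosomes against 1193, 1502 and 68 in fibroblasts (log2 -0.72, SE 0.66, edgeR adjusted p = 0.454), and only fibroblast library 4, at 27.9 CPM, lay below the exosome range of 33.3 to 58.8 CPM. rno-miR-142-3p had 6, 2 and 0 counts in exosomes against 197, 570 and 19 in fibroblasts (log2 -0.01, SE 0.89, edgeR adjusted p = 0.994).

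The reads behind these comparisons were few, and whether they exceed the fibroblast share depended on the scale. At the mean fibroblast share of total counts, the exosome libraries together would hold 5.84 reads of miR-451-5p, where 24 were counted (95% Poisson interval 15.4 to 35.7). In the same way 8.91 reads of miR-223-3p would be held and 19 were counted (11.4 to 29.7), and 48.2 of miR-150-3p, where 65 were counted (50.2 to 82.9). Fewer than that share gives were counted for miR-142-5p, 17 (9.90 to 27.2) against 39.4, and for miR-144-3p, 4 (1.09 to 10.2) against 11.98. For the other 5 the share's count lay inside the interval. With miR-873-3p left out of the totals the expected reads were 0.512 to 6.13 per miRNA, and 9 of the 10 were counted above them: miR-142-5p turned round, with 17 against 5.00, and miR-144-3p, with 4 against 1.52, lay inside its interval. These intervals leave out the spread between libraries, which the fit takes in. By mean share of total counts, 4 of the 10 were higher in exosomes, beside 35.7% of all miRNAs. With miR-873-3p left out, all 10 were higher, beside 84.3% of all miRNAs. How many of all miRNAs lie outside such intervals was not tested. In the authors' deposited table, adjusted p was 0.87 to 1 for the 10 miRNAs, where 7.28% of all 728 had an adjusted p under 0.05, and its mean normalized counts for miR-451-5p were 87.7 in exosomes and 10.0 in fibroblasts.

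The arms of these hairpins were used less unequally in fibroblasts than those of the most abundant hairpins. In exosomes the 3p arm held 62.5%, 23.1% and 15.4% of miR-451 counts in libraries 1, 2 and unnumbered (Clopper-Pearson intervals 24.5 to 91.5, 5.04 to 53.8 and 1.92 to 45.5). The plot of arm use shows the intervals of the other hairpins. In fibroblasts the 3p arm held 65.6% ± 6.15 of miR-150 counts, 29.6% ± 14.9 of miR-223 counts and 68.1% ± 12.2 of miR-451 counts (SD, n = 3 each), so the opposite arm outnumbered the guide known from blood in each of the 3 libraries for all 3 hairpins. For miR-451 the interval of fibroblast library 1 (54.1%, 47.6 to 60.5) still held equal use. miR-144 kept the known order, with 73.7% ± 6.40 on the 3p arm, and miR-142 had 21.2% ± 6.69 on the 3p arm (SD, n = 3 each). The larger arm held 65.6% to 78.8% of the counts of the 5 hairpins, with a median of 70.4%. Among all 265 hairpins with both arms listed the median was 74.3%; it was 98.5% in the 27 most abundant and 69.5% in the 133 least abundant, which include all 5 of these. Of 4 fibroblast hairpins, 3 had a larger arm with 88.0% (miR-199a) to 99.95% (miR-143) of the fibroblast counts. The remaining one, miR-145, was more even, with 57.1%, 63.6% and 0% of 7, 11 and 3 counts on the 3p arm in exosome libraries 1, 2 and unnumbered and 42.0% ± 5.95 in fibroblasts (SD, n = 3).

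**Figure D3:**
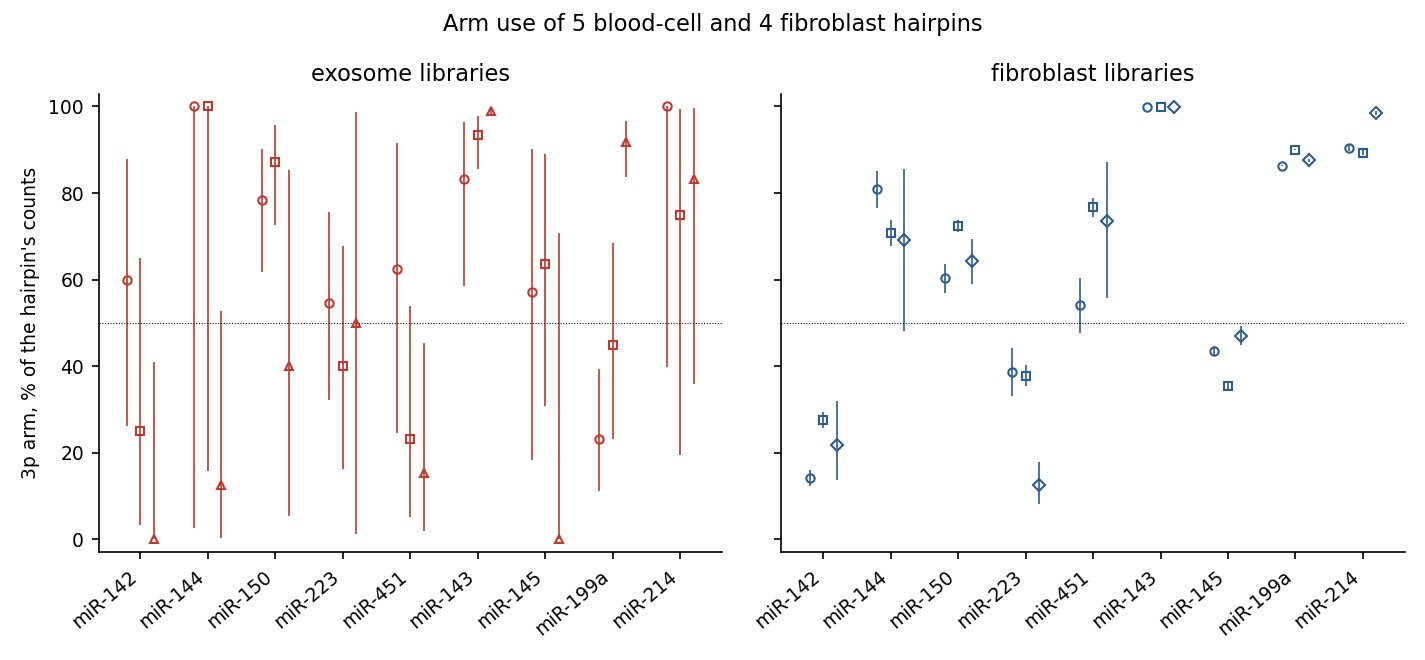
Share of each hairpin's counts on the 3p arm in the exosome libraries (left, circle 1, square 2, triangle unnumbered) and fibroblast libraries (right, circle 1, square 2, diamond 4), with 95% Clopper-Pearson intervals, for the 5 blood-cell hairpins and 4 fibroblast hairpins. In fibroblasts the 3p arm of miR-143 holds over 99% in each library, while the blood-cell hairpins lie between 12.4% and 81.0%.

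Set beside miRNAs of other cell types, the blood-cell group lay among the scarce groups and far below the fibroblast group in the cells. Per miRNA it averaged 54.1 CPM in exosomes and 53.0 CPM in fibroblasts. The 5 epithelial miRNAs (miR-200 family, miR-141 and miR-429) averaged 38.2 CPM in exosomes and 31.8 CPM in fibroblasts. The 7 cardiomyocyte and muscle miRNAs averaged 12.5 CPM in exosomes and 19.4 CPM in fibroblasts. Of the 5 muscle miRNAs tested, 1 was lower in exosomes, which is near the 18.6% lower over all tested miRNAs. The 1 called was miR-499-5p, a cardiac miRNA, with 0, 0 and 1 counts against 408, 933 and 48 in fibroblasts (log2 -3.78, edgeR adjusted p = 0.011). The other 4 were not called, and the median log2 fold change of the 5 was 0.38. The liver miRNA miR-122-5p had 33.5 ± 29.7 CPM in exosomes and 16.9 ± 15.7 CPM in fibroblasts (SD, n = 3 each); with miR-192-5p, which was abundant in fibroblasts, the liver and serum list averaged 64.9 CPM in exosomes and 682 CPM in fibroblasts. miR-192-5p itself was lower in exosomes (log2 -3.30, edgeR adjusted p = 0.0011). The arms of miR-126a, known from endothelium and platelets, averaged 462 CPM in exosomes and 66.4 CPM in fibroblasts, and 1 arm set this. miR-126a-3p was higher in exosomes, at 856 ± 73.3 CPM against 38.3 ± 13.1 CPM in fibroblasts (SD, n = 3 each; log2 4.85, edgeR adjusted p = 1.3e-06), while miR-126a-5p had 67.7 ± 65.3 CPM in exosomes and 94.5 ± 24.8 CPM in fibroblasts and was not called. The 5 miRNAs of fibroblasts and mesenchyme (miR-143-3p, miR-145-5p, both arms of miR-199a and miR-214-3p) summed to 0.253% ± 0.319 of exosome counts and 27.5% ± 2.17 of fibroblast counts (SD, n = 3 each). All 5 were lower in exosomes, beside 18.6% of all tested miRNAs. No blood-cell miRNA was at 0 in a fibroblast library, while miR-144-5p was at 0 in exosome libraries 1 and 2 and miR-142-3p in the unnumbered one. The share of these 10 in the total was smaller than that of the fibroblast group by a wide margin in each fibroblast library, at 0.0282% to 0.0814% against 25.9% to 29.95%. In exosome libraries 1, 2 and unnumbered the 10 held 0.0649%, 0.0681% and 0.0294%, against 0.0507%, 0.0875% and 0.621% for the fibroblast group. In exosome library 1 the 5 fibroblast miRNAs thus had the smaller sum. The Clopper-Pearson intervals of the 2 sums overlapped there (0.0388% to 0.0652% against 0.0513% to 0.0810% for the 10). Per miRNA the order in that library was the reverse, at 101.5 CPM for the fibroblast group and 64.9 CPM for the blood-cell group.

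**Figure D4:**
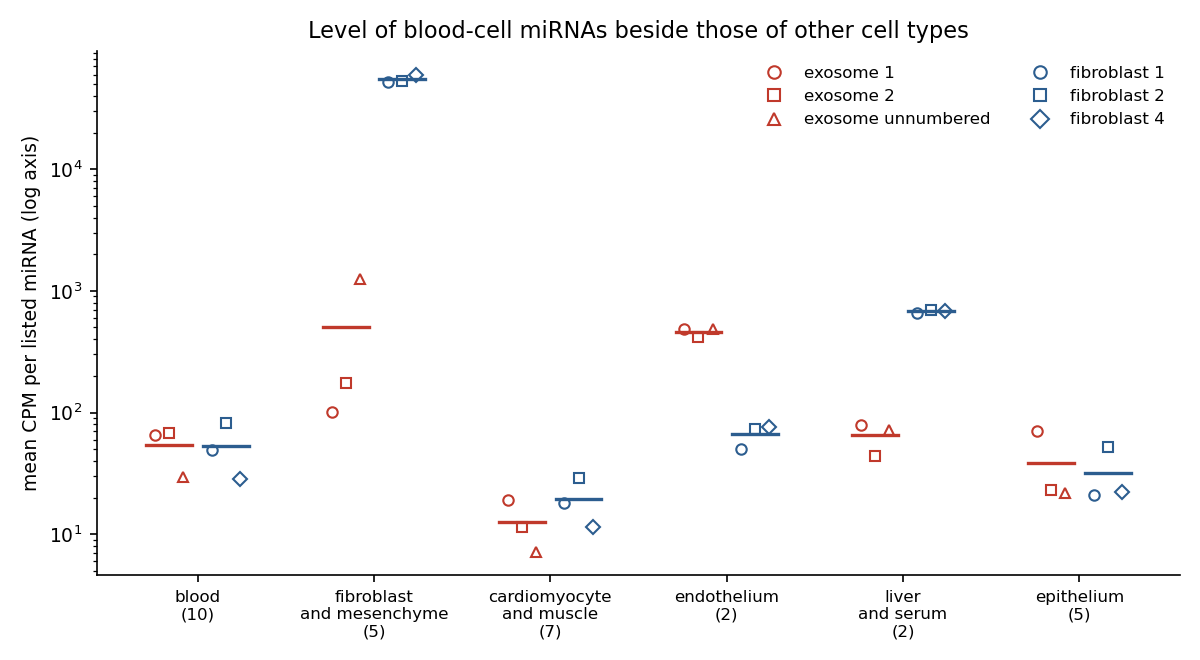
Mean CPM per listed miRNA (log axis) of the 10 blood-cell miRNAs and of lists for other cell types, with the number listed in brackets, 1 point per library and bars at the mean; exosomes are red and left, fibroblasts blue and right. The blood-cell points lie between 28.2 and 81.4 CPM, near the epithelial ones, and the fibroblast list reaches 51820 to 59900 CPM in fibroblasts.

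Among 13 further miRNAs that blood shares with many tissues, 7 were lower in exosomes, 0 were higher and 6 were not called (median log2 fold change -2.31, beside -0.15 and 18.6% lower over all tested). Those lower were miR-146a-5p (log2 -5.11, SE 0.89), miR-16-5p (log2 -4.33, SE 1.17), miR-181b-5p, miR-155-5p, miR-15b-5p, miR-25-3p and miR-93-5p. These 13 included abundant fibroblast miRNAs, such as miR-181a-5p with 1859 ± 740 CPM in exosomes against 35280 ± 8842 CPM in fibroblasts (SD, n = 3 each), which was not called (edgeR adjusted p = 0.055).

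The blood-cell miRNAs also varied between libraries of a group. In CPM, 6 of the 10 were lowest and 3 highest in the unnumbered library among exosomes. The same shares over all 728 miRNAs were not computed, so these counts cannot be read as a trait of the members. The median count per miRNA was also lowest in the unnumbered library, at 3 against 8 and 7 in exosome libraries 1 and 2. Among fibroblasts, 9 of the 10 were highest in library 2 and 8 were lowest in library 4, where 78.2% and 63.3% of all 728 miRNAs were. The miRNAs whose log2(CPM + 1) over the 6 libraries was most like the mean of the 10 were miR-203b-3p (Pearson's r = 0.99), miR-3583-5p (r = 0.97) and miR-758-5p (r = 0.97). These had 1 to 7 counts in each exosome library, and the points share depth and total with the members; genes are not independent replicates.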

How the data were processed

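The main tests used the read counts of each mature miRNA as the authors deposited them. The authors also deposited a normalized signal, which is not in whole numbers. Per the file headers, their comparison gives a fold ratio, log2 fold change, p-value and adjusted p. The submitters' processing notes name CASAVA 1.8.2, cutadapt 1.2.1, DESeq and genome build rn5; how reads were aligned and counted is not given in the sources used here. The row named rest in the normalized table, which names no miRNA and held 63.1% to 84.4% of its values per library, was left out.

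The test was edgeR's (4.0.16, under R 4.3.3), with TMM scaling, filterByExpr (minimum count 10, minimum total 15), quasi-likelihood test on group, two-sided, Benjamini-Hochberg threshold 0.05; 698 of 728 miRNAs passed. The standard error is the size of the log2 fold change over the square root of F. Alternatives used total counts, RLE, DESeq2 1.42.0, no filter, library sizes without miR-873-3p, a replicate block, each library left out, and limma 3.58.1 on log2(normalized value + 1), added after seeing the data, for mean normalized values of 5 or more. Only the edgeR fit was checked on simulated counts, which had less spread between replicates than these data. The shares, arm use and intervals were not checked in this way. Sums over the members carry no test.

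Members were all arms of the 5 hairpins in the counts; another blood miRNA of the rule was not analysed here. The members, lists and naming rule (all members; called members and the most abundant of other lists may be named; the 3 most alike by Pearson's r) were chosen with earlier results of these data known. The arm comparison with all hairpins and the counts at the fibroblast share were chosen after values were seen. Sequences are from RefSeq, build GRCr8, and were matched by name.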

Additional observations from a re-analysis of the deposited data

How the results depend on the processing

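miR-451-5p stayed higher in exosomes under all 13 alternatives and passed in 9. It did not pass with total counts (log2 2.03), the replicate block (1.52, edgeR adjusted p = 0.163), limma on the normalized values (2.60, adjusted p = 0.0793) or without the unnumbered exosome library (1.90; range 1.90 to 3.33 over libraries left out). The number of blood-cell miRNAs called, 1, became 0 with total counts and with limma, 2 without miR-873-3p in the library sizes, and 0 to 1 with a library left out. The calls over all miRNAs, 209, were 134 to 214 with a library left out; without fibroblast libraries 1, 2 and 4 the filter left 402, 359 and 414 miRNAs and only 2, 2 and 3 members. The share in exosomes was 0.421% outside miR-873-3p. Over all tested miRNAs the median log2 fold change, -0.15, was -0.57 with total counts and 0.21 without miR-873-3p.

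Uncalled members changed sign as follows, and the cause was not tested. miR-142-3p was 0.048 with RLE, 0.36 without miR-873-3p, 0.025 with DESeq2 and -1.24 to 0.29 with a library left out. miR-144-5p was -0.58 with limma, -9.43 with the block and -8.93 to 2.60 with a library left out; it had 0 reads in the exosome libraries of the lowest fits, so these values are no bound. miR-150-3p was -0.010 to 1.02 with a library left out, and miR-150-5p 0.14 without miR-873-3p. miR-223-5p was -0.066 with total counts, -0.17 with no filter, -0.053 with limma and -0.46 to 0.19 with a library left out. miR-451-3p was -0.56 with total counts, -0.10 with no filter, -0.14 with the block and -0.090 to 0.12 with a library left out.

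The block used the 2 numbers that both groups share. Deviations of same-numbered libraries correlated at -0.07 and 0.16 across miRNAs, and the labels do not say that numbers mark a shared culture, so the block is only an alternative; it called miR-142-5p lower (log2 -1.65, edgeR adjusted p = 0.0427) and 242 miRNAs in all. Reads behind the normalized table were not tested as counts, since its values in fibroblast libraries 1 and 2 were not recovered as whole reads, and the share without the miRNA not analysed here was not run.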
